A study of Mus musculus with 9 samples.

Results

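The genes described here encode the subunits of the receptors for glutamate, GABA and glycine, the fast transmitters of the hypothalamus. The members were chosen by their symbols, and 52 of the 23528 gene symbols in the table of molecules matched. They comprise 4 AMPA, 7 NMDA, 5 kainate and 2 delta receptor genes, 8 metabotropic glutamate receptor genes, 19 GABA-A, 2 GABA-B and 5 glycine receptor genes. The RNA came from 9 single cells of the hypothalamic paraventricular nucleus of C57Bl6/N mice aged 21 to 28 days, all labelled secretagogin-positive, with no treatment named in the labels. Secretagogin is a calcium-binding protein. Cells are numbered 1 to 9 as in the labels. Which animal each cell came from is not stated, so the 9 cells count as 1 sample, no p-value was computed, and all intervals are exact 95% intervals that cover counting error only.

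Glutamate excites neurons through AMPA, NMDA and kainate receptors, which are ion channels built of several subunits, and through metabotropic receptors, which act on G proteins. GABA and glycine inhibit mature neurons through chloride channels, the GABA-A and glycine receptors, and GABA also acts on G proteins through the GABA-B receptor. In the paraventricular nucleus, glutamate and GABA inputs together set the firing of the neurons that release stress hormones, oxytocin and vasopressin. A receptor's composition decides its conductance, its calcium entry and its drug sensitivity, so the choice among subunit genes matters as much as their sum.

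The depth limits what can be seen. Gene molecules ran from 1021 in cell 1 and 3393 in cell 6 to 26466 in cell 5, and 7160 to 13176 in the other 6 cells. A count of 0, taken as under 3 molecules, leaves room for 29.4 molecules per 10000 gene molecules in cell 1 and 8.84 in cell 6, but 1.13 in cell 5 and 2.28 to 4.19 in the others. Scgn itself, the gene of the label, was detected in cells 2, 3, 5, 8 and 9, with 11 molecules in cell 3 and 1 to 3 in the other 4. Neuron markers were found in every cell, from 1 of 10 markers in cell 1 to 10 of 10 in cell 5, and took 0.0665% to 0.850% of molecules. At 2 or more molecules the numbers in cells 1 and 5 were 0 and 9. In 4 cells at least 3 markers of another cell type had 2 or more molecules. The marker numbers given next for these cells use that cut. Cell 4 had 4 of 7 blood markers, with 20.9% of its molecules, and 8 of 10 endothelial markers. Cell 5 had 10 of 10 oligodendrocyte markers, with 442 molecules. Cell 7 had 8 of 10 endothelial markers, with 65 molecules, and cell 8 had 8 of 10 ependymal and tanycyte markers, with 346, and 4 of 10 astrocyte markers. The lists for oligodendrocyte precursors, microglia, mural and fibroblast-like cells had at most 9 molecules in any cell. In cells 1, 2, 3, 6 and 9 every list of another cell type had at most 3. The part of such other RNA in the receptor counts was not tested, and values without cells 4, 5, 7 and 8 are given beside several results.

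Of the 52 genes, 32 (61.5%) had at least 1 molecule in at least 1 cell, against 41.4% of all symbols. In at least 5 of the 9 cells 5 members were detected, or 9.62% against 7.00% of all symbols, which is close to the background. Among them were Gria2, Gria3, Grin3a and Gabbr1. Among detected genes the median was 7 molecules over all cells for the members and 3 for all symbols. The share of detected genes that reached 5 cells was 15.6% for the members and 16.9% for all symbols. Detection at 2 or more molecules left 2 members in at least 5 cells, Gria2 among them. Gria3, Grin3a and Gabbr1 are in exactly 5 cells, so the count of 5 was 2 when cell 2, 3 or 5 was left out and 3 when cell 8 or 9 was. In the 5 cells without markers of another type, 6 members were detected in at least 3, a cut chosen after seeing the data. The share of all symbols is not given at this cut or at 2 molecules. These counts are therefore not set against the background. The 20 genes with no molecule in any cell included Gria4, Grin2c, Grin2d, Grin3b, Grik3, Grid1, Grm4, Grm6, Grm8, Gabra5, Gabra6, Gabrd, Gabrg3, Gabrp, Gabrr1, Gabrr2, Gabrr3, Glra1 and Glra4.

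**Figure D1:**
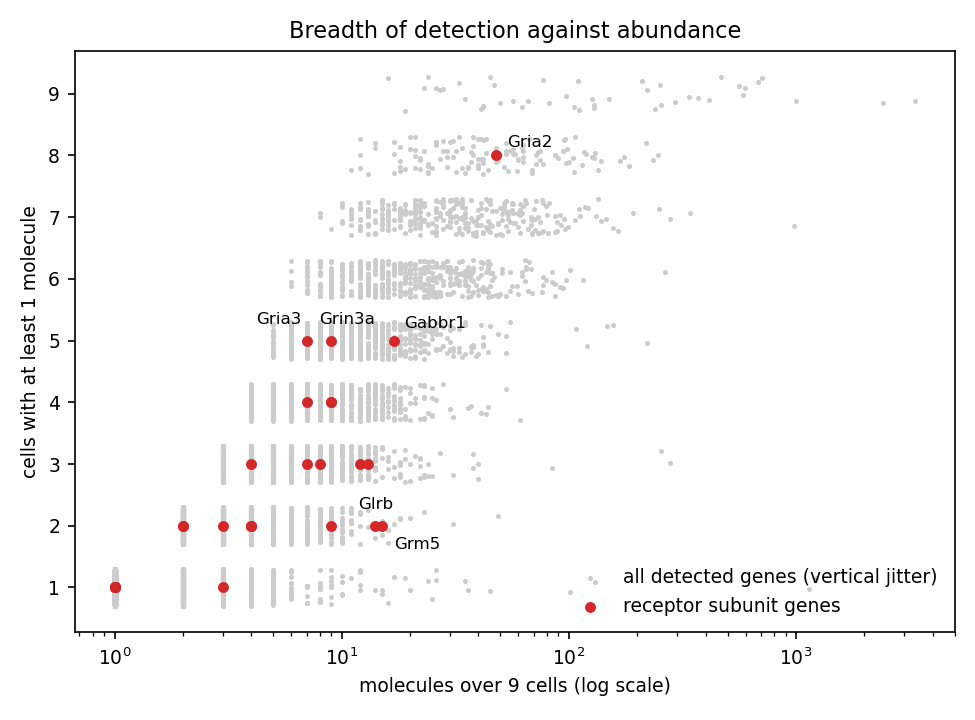
Molecules over the 9 cells (x axis, log scale) against the number of cells with at least 1 molecule (y axis) for every detected gene, with 28 of the 32 detected receptor genes in red. Gria2 stands in 8 cells, while Grm5 and Glrb hold 15 and 14 molecules in only 2 cells.

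The start regions of 4 members show the sequence context of the group. A RefSeq promoter (build GRCm38.p6, from 250 bases before to 50 after the start) was found for 36 of the 52 members. Gria2 and Gabbr1 are shown as the members with such an entry that were detected in the most cells, and Gabra4 and Gabrb1 because the 5′ ends of these neighbouring genes overlap. In the sequences below, written 5′ to 3′ on the gene's strand, capitals mark each CG dinucleotide. The windows are chr3:80802786-80803085 (minus strand) for Gria2, chr17:37045716-37046015 (plus strand) for Gabbr1, chr5:71658259-71658558 (minus strand) for Gabra4 and chr5:71657671-71657970 (plus strand) for Gabrb1.
Gria2: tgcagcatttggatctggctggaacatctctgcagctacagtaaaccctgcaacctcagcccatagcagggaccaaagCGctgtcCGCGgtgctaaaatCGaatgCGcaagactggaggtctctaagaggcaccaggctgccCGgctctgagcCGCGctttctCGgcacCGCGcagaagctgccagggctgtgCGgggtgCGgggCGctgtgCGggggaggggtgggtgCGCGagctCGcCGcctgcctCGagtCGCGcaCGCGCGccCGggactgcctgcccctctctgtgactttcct
Gabbr1: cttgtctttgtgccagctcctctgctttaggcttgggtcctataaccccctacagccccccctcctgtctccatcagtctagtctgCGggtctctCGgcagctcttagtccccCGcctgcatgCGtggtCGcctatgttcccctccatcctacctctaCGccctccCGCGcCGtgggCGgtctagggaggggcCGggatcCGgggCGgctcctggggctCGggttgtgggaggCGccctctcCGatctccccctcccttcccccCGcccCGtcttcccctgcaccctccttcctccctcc
Gabra4: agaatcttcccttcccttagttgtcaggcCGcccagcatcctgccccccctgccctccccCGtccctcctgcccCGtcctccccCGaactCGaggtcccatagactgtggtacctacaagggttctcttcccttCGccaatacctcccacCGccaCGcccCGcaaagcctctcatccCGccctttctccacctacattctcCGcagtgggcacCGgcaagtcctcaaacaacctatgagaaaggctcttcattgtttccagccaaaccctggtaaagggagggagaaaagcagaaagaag
Gabrb1: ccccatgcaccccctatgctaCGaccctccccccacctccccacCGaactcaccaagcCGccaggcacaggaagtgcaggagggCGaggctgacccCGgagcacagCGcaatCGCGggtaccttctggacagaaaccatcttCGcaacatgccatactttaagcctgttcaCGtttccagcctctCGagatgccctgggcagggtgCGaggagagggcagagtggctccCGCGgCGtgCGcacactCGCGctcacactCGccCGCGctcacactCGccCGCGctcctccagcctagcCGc

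The 4 windows held 26, 18, 12 and 25 CG dinucleotides in the order shown. All promoters of the table, with every listed start counted, had a median of 7. Among the members with an entry, taking the first listed start of each gene, the median was 22 for the 21 genes detected in at least 1 cell (range 0 to 46) and 9 for the 15 genes detected in none (range 2 to 50). The GC box GGGCGG, searched on both strands, lay in 16 of those 21 windows and in 5 of those 15, against 35.7% of all 32851 promoters. The latter share counts every listed start, and by that count the GC box lay in 22 of 43 member windows (51.2%). It matched 3 times in the Gabbr1 window and 2 times in that of Gabra4, and not in those of Gria2 and Gabrb1. The TATA box TATAAA, in 13.6% of all promoters, and the letters TGACG, in 20.8%, were in none of the 4. Promoter content was compared as a description only, and the groups overlap widely. In the GENCODE M21 annotation (GRCm38/mm10) the gene spans of Gabra4 and Gabrb1 share 196 bases on opposite strands. Whether strand was used in counting is not stated in the labels or the table, so molecules from that stretch cannot be assigned to either gene.

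AMPA receptors carry most fast excitation. Gria2 encodes the subunit that makes these channels impermeable to calcium once its message is edited, and lies on chromosome 3 at 80681450 to 80802835. It had 1, 8, 7, 0, 13, 3, 8, 3 and 5 molecules in cells 1 to 9. It was detected in more cells than any other member, 8 of 9, and cell 4 alone lacked it. Per 10000 molecules the levels in the 8 cells ran from 2.28 (interval 0.470 to 6.65) in cell 8 to 11.2 (interval 4.82 to 22.0) in cell 7, and all 8 intervals overlap. In cell 7 it was 8 of the 9 receptor molecules found, beside 65 endothelial-marker molecules and 16 of neuron markers. In the 5 cells without markers of another type it was detected in all 5, with 24 molecules.

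The other AMPA genes were sparser. Gria3 had 1, 3, 1, 1 and 1 molecules in cells 2, 3, 5, 6 and 8. Gria1, whose subunit enters synapses on activity, had 3, 1 and 3 in cells 2, 3 and 5, and Gria4 had none. Gria2 took 48 of the 62 AMPA molecules (77.4%, interval 65.0 to 87.1%), and it led in every cell that held any. Per kilobase of the longest transcript Gria2 also led, with 4.63 molecules against 1.34 for Gria3 and 1.26 for Gria1. The part of transcript length in these counts was not tested.

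NMDA receptors need the GluN1 subunit, encoded by Grin1, together with GluN2 subunits, while GluN3 subunits lower calcium entry. Grin3a, which encodes GluN3A, a subunit prominent in young brain, had 1, 1, 5, 1 and 1 molecules in cells 2, 3, 5, 8 and 9. It was 9 of the 21 NMDA molecules. Grin2b, the main GluN2 gene of young brain, had 1, 2, 2 and 2 in cells 2, 5, 8 and 9. Without cell 5, which carried the oligodendrocyte markers, Grin3a had 4 molecules and Grin2b 5. Grin1 was found in only cells 5 and 9, with 3 and 1 molecules, and Grin2a had 1 molecule in cell 8. Grin1 with a Grin2 gene was therefore seen together in 2 cells, cells 5 and 9, and in cell 9 alone among those without markers of another type. Cells 2 and 8 held Grin2b without Grin1, where a 0 leaves room for 3.13 and 2.28 molecules per 10000. The Grin1 level of cell 5, 1.13 per 10000 (interval 0.234 to 3.31), lies under those limits. The longest Grin2b and Grin3a transcripts are 24.1 and 7.49 kilobases. Per kilobase Grin3a had 1.20 molecules, Grin1 0.936 and Grin2b 0.291.

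Kainate receptors modulate release and excitability. Grik5, an accessory subunit gene that needs a partner of the Grik1 to Grik3 group to form channels, had 3, 2, 1 and 3 molecules in cells 3, 5, 8 and 9. Grik2, such a partner, had 1, 1 and 2 in cells 2, 3 and 5. Grik1 and Grik4 had 1 molecule each, both in cell 2. Cells 3 and 5 thus held Grik5 with a partner, and in cells 8 and 9 no partner was seen. A 0 there leaves room for 2.28 and 3.83 molecules per 10000. Grik2, where detected, had 0.756 to 1.05, so a partner at that level could have been missed. Grid1, a delta receptor gene, had no molecule in any cell.

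The metabotropic glutamate genes were found in 5 cells, as many as for the NMDA, kainate, GABA-B and glycine families. Grm5 encodes a receptor that couples to calcium release. It had 9 molecules in cell 2 and 6 in cell 5, with none elsewhere. In cell 2 the Grm5 level was 9.40 per 10000 (interval 4.30 to 17.9), above the limits for a 0 of 2.28 to 4.19 in cells 3, 4, 7, 8 and 9. Its interval overlaps that of cell 5, 2.27 (interval 0.832 to 4.93). The receptors that inhibit adenylyl cyclase were sparser, and none was found in cell 2. Grm2 had 3 molecules in cell 6 and 1 in cell 5, Grm7 had 1 in both, and Grm3 had 1 each in cells 3 and 9. In cell 6, with 3393 gene molecules in all, Grm2 reached 8.84 per 10000 (interval 1.82 to 25.8).

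**Figure D2:**
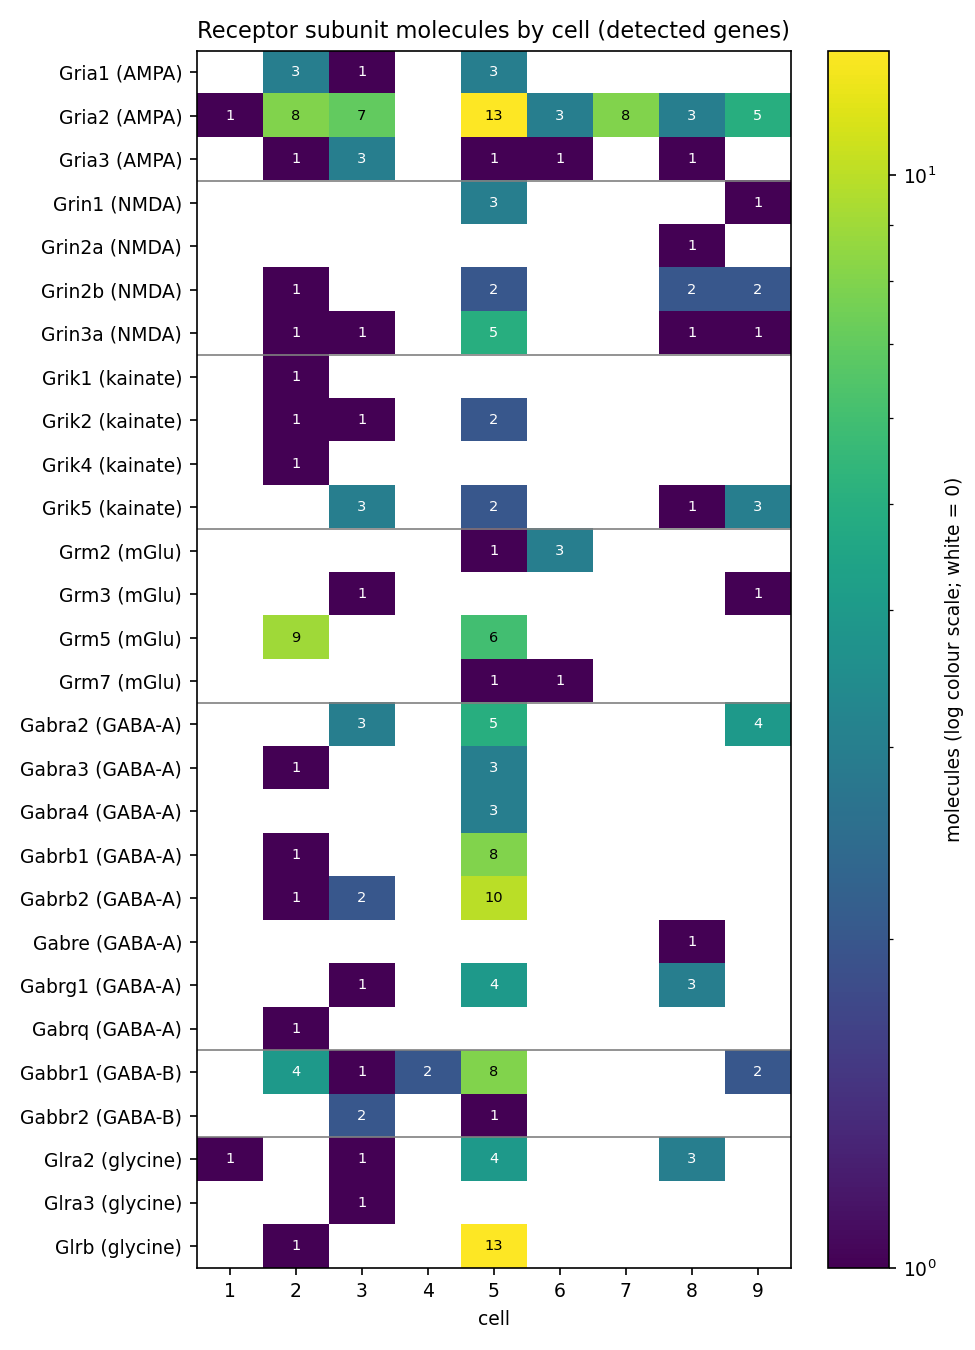
Molecules of 28 of the 32 detected receptor genes (rows, grouped by family) in cells 1 to 9 (columns), with the count printed and coloured on a log scale and a count of 0 left white. Gria2 fills every column but that of cell 4, cell 4 holds only 2 Gabbr1 molecules, and Gria2 and Glrb reach 13 molecules in cell 5.

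GABA-A receptors were the family with the most molecules, 140 of 310 (45.2%). Their common form combines alpha, beta and gamma subunits. The family had 0, 14, 14, 0, 80, 5, 1, 8 and 18 molecules in cells 1 to 9. Cell 5 stood highest at 30.2 per 10000 (interval 24.0 to 37.6), followed by cell 9 at 23.0 (interval 13.6 to 36.4), cell 6 at 14.7 (interval 4.79 to 34.4), cell 2 at 14.6 (interval 8.00 to 24.5) and cell 3 at 13.1 (interval 7.13 to 21.9). The intervals of cells 9, 6 and 2 overlap that of cell 5, and that of cell 3 lies below it. Cells 8 and 7 had 6.07 (interval 2.62 to 11.96) and 1.40 (interval 0.0354 to 7.78), also below cell 5. GABA-A genes took 54.4% of the receptor molecules of cell 5 (interval 46.0 to 62.6%) and 54.5% of those of cell 9 (interval 36.4 to 71.9%), against 29.2% in cell 2 (interval 16.9 to 44.1%).

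The alpha subunit decides much of the receptor's drug response. Gabra2 had 3, 5 and 4 molecules in cells 3, 5 and 9. Its levels there were 2.80 (interval 0.577 to 8.17), 1.89 (interval 0.613 to 4.41) and 5.11 (interval 1.39 to 13.1) per 10000, and the 3 intervals overlap. Gabra3 had 1 and 3 molecules in cells 2 and 5, and Gabra4 had 3 in cell 5 alone. The gamma gene Gabrg1 had 1, 4 and 3 in cells 3, 5 and 8. Cell 8 held the astrocyte and ependymal markers.

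Among the beta genes Gabrb2 had 1, 2 and 10 molecules in cells 2, 3 and 5, and Gabrb1 had 1 and 8 in cells 2 and 5. In cell 5 the Gabrb2 level was 3.78 per 10000 (interval 1.81 to 6.95), which overlaps those of cells 2 and 3 at 1.05 (interval 0.0264 to 5.82) and 1.86 (interval 0.226 to 6.73). Transcripts of an alpha, a beta and a gamma gene together were seen in 3 cells, and in 2 of the cells without markers of another type. Gabrd, whose subunit replaces gamma in receptors outside synapses, had no molecule in any cell. Gabre and Gabrq, for the epsilon and theta subunits, had 1 molecule each, in cells 8 and 2. Per kilobase of transcript Gabrb2 had 3.26 molecules and Gabra2 2.05.

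Many GABA-A genes lie in clusters on the mouse genome, a feature the choice by symbol did not use. The cluster on chromosome 5 (70751047 to 72149037), with Gabrg1, Gabra2, Gabra4 and Gabrb1, held 32 molecules, of which 20 lay in cell 5 and 4 each in cells 3 and 9. All 4 of its genes were found in cell 5, and only Gabra2 in cell 9. The cluster on chromosome X (72255999 to 72842602), with Gabre, Gabra3 and Gabrq, held 6. Gria2 and Glrb, of different families, are neighbours on chromosome 3 (80681450 to 80913660), and were found in 8 and 2 cells.

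The GABA-B receptor works as a pair of its products, GABBR1 binding GABA and GABBR2 coupling to the G protein. Gabbr1 had 4, 1, 2, 8 and 2 molecules in cells 2, 3, 4, 5 and 9. Gabbr2 had 2 and 1 in cells 3 and 5, so both transcripts were seen in those 2 cells. The 2 Gabbr1 molecules in cell 4 were the only receptor molecules of that cell, at 1.66 per 10000 (interval 0.201 to 6.01), beside its blood and endothelial markers.

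Glycine receptors combine alpha subunits with the beta subunit that anchors them at synapses. Glra2, the alpha gene of immature neurons, lies on chromosome X at 165129017 to 165327393, and had 1, 1, 4 and 3 molecules in cells 1, 3, 5 and 8. Glrb had 13 molecules in cell 5 and 1 in cell 2, and Glra3 had 1 in cell 3. At 4.91 per 10000 (interval 2.62 to 8.40) in cell 5, Glrb lay above the limits for a 0 in cells 3, 4, 7, 8 and 9, though the lower bound of its interval does not clear all of them. An alpha and the beta gene were found together in cell 5 only. Glra1, the alpha gene of the adult spinal cord, had no molecule. Cell 5 also carried the oligodendrocyte markers, and without the 4 cells with other markers Glrb was left with 1 molecule and Glra2 with 2.

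**Figure D3:**
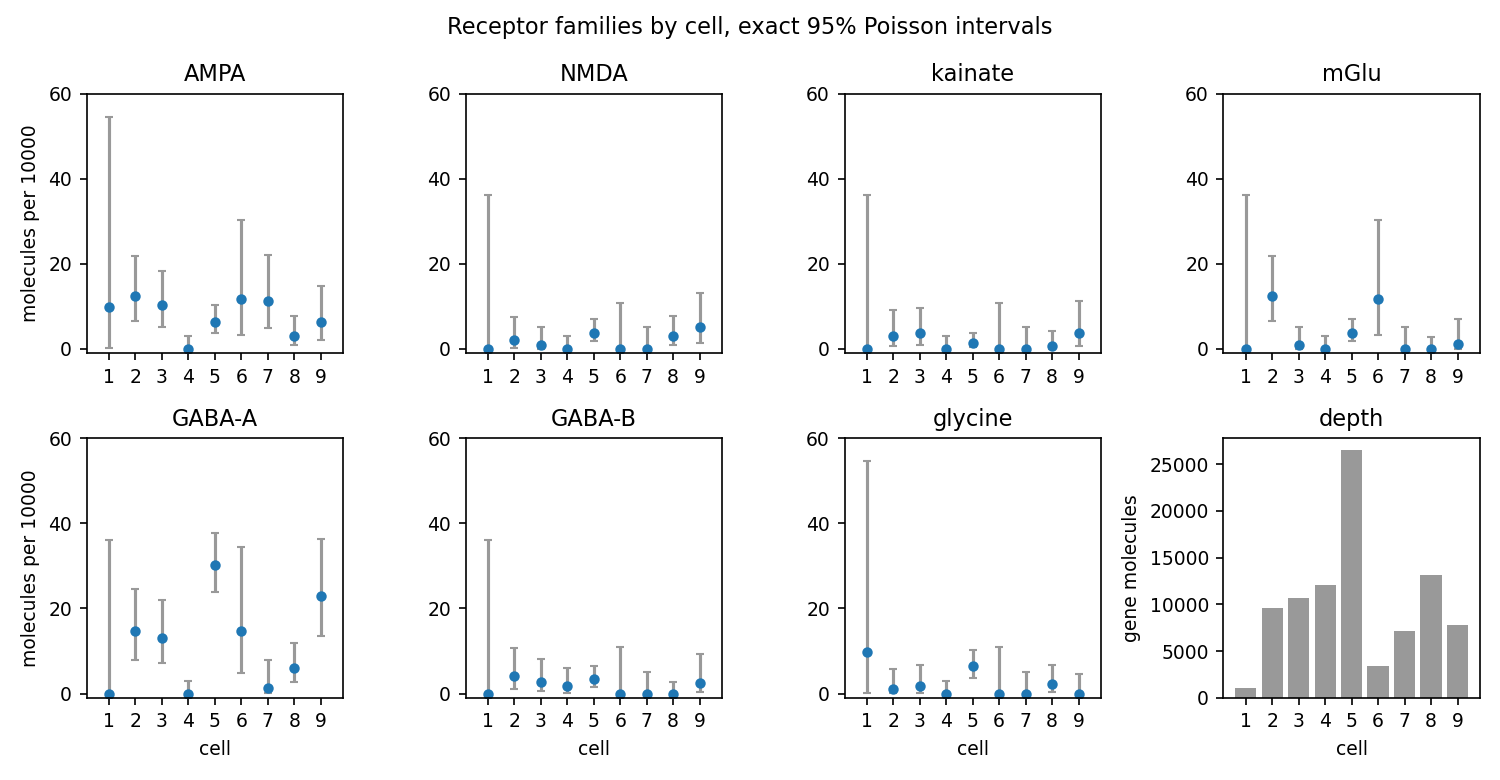
Molecules per 10000 gene molecules (y axis) for 7 receptor families in cells 1 to 9 (x axis), with exact 95% Poisson intervals as bars, and the gene molecules of each cell in the last panel. GABA-A molecules run from 0 in cells 1 and 4 to 30.2 in cell 5, and the wide bars of cells 1 and 6 show their low depth.

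Summed over all members, the receptor genes had 2, 48, 36, 2, 147, 13, 9, 20 and 33 molecules in cells 1 to 9. Per 10000 gene molecules the median was 33.6. Cell 5 stood highest at 55.5 (interval 46.9 to 65.3), followed by cell 2 at 50.1 (interval 37.0 to 66.5), cell 9 at 42.2 (interval 29.0 to 59.2), cell 6 at 38.3 (interval 20.4 to 65.5) and cell 3 at 33.6 (interval 23.5 to 46.5). Neighbours in that order do not differ beyond their intervals. Cells 8, 7 and 4 lay lower, at 15.2 (interval 9.27 to 23.4), 12.6 (interval 5.75 to 23.9) and 1.66 (interval 0.201 to 6.01). All 3 carried markers of another cell type, as did cell 5, the highest. Neuron markers took 0.137%, 0.224% and 0.0665% of molecules in cells 8, 7 and 4, and 0.850%, 0.627%, 0.626%, 0.206% and 0.354% in cells 5, 2, 9, 6 and 3. These values rest on 7 neuron-marker and 13 receptor molecules in cell 6, and on 16 and 9 in cell 7. The part of neuron content in the receptor level was not tested. Cell 1, at 19.6 (interval 2.37 to 70.8), rests on 2 molecules. Cell 5 held 47.4% of all receptor molecules and 29.0% of all gene molecules. The members detected in cells 1 to 9 numbered 2, 19, 15, 1, 25, 6, 2, 11 and 10. Over all symbols the numbers detected were 493, 3493, 3468, 2401, 5524, 1140, 2568, 4115 and 2815, so they also varied widely between cells.

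The cells' own transmitter was read from Slc17a6, a vesicular glutamate transporter gene, and from Gad1, Gad2 and Slc32a1, which make and package GABA. Slc17a6 had 1, 1, 2, 1 and 2 molecules in cells 1, 3, 5, 6 and 9, and its relatives Slc17a7 and Slc17a8 had none. Gad1 had 4, 2 and 19 molecules in cells 2, 4 and 5, Gad2 had 7 and 16 in cells 2 and 5, and Slc32a1 had 5 and 3 in the same cells. Slc6a5, the glycine transporter gene of glycine neurons, had none. The receptor families are set beside these markers cell by cell, since cells were not grouped by a measured value.

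Each cell with any ionotropic receptor molecule held both glutamate receptors (AMPA, NMDA and kainate) and GABA-A or glycine receptors. The glutamate side was 31 of 128 molecules in cell 5 (24.2%, interval 17.1 to 32.6%), the cell with 38 molecules of GABA markers and with the oligodendrocyte markers. It was 17 of 32 in cell 2 (53.1%, interval 34.7 to 70.9%), the other cell with many GABA-marker molecules, 16 of them. The intervals of cells 5 and 2 do not overlap. The share was 50% (interval 31.9 to 68.1%) in cell 3 and 40.0% (interval 22.7 to 59.4%) in cell 9, both with Slc17a6 and no GABA marker. It was 45.0% (interval 23.1 to 68.5%) in cell 8 and 88.9% (interval 51.8 to 99.7%) in cell 7, neither with any transmitter marker. Cell 6, with 1 Slc17a6 molecule, had 44.4% (interval 13.7 to 78.8%), and cell 1 held 1 molecule of each side. The glutamate side outnumbered the other in cells 2 and 7. Per kilobase of transcript it did so in 1 cell.

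**Figure D4:**
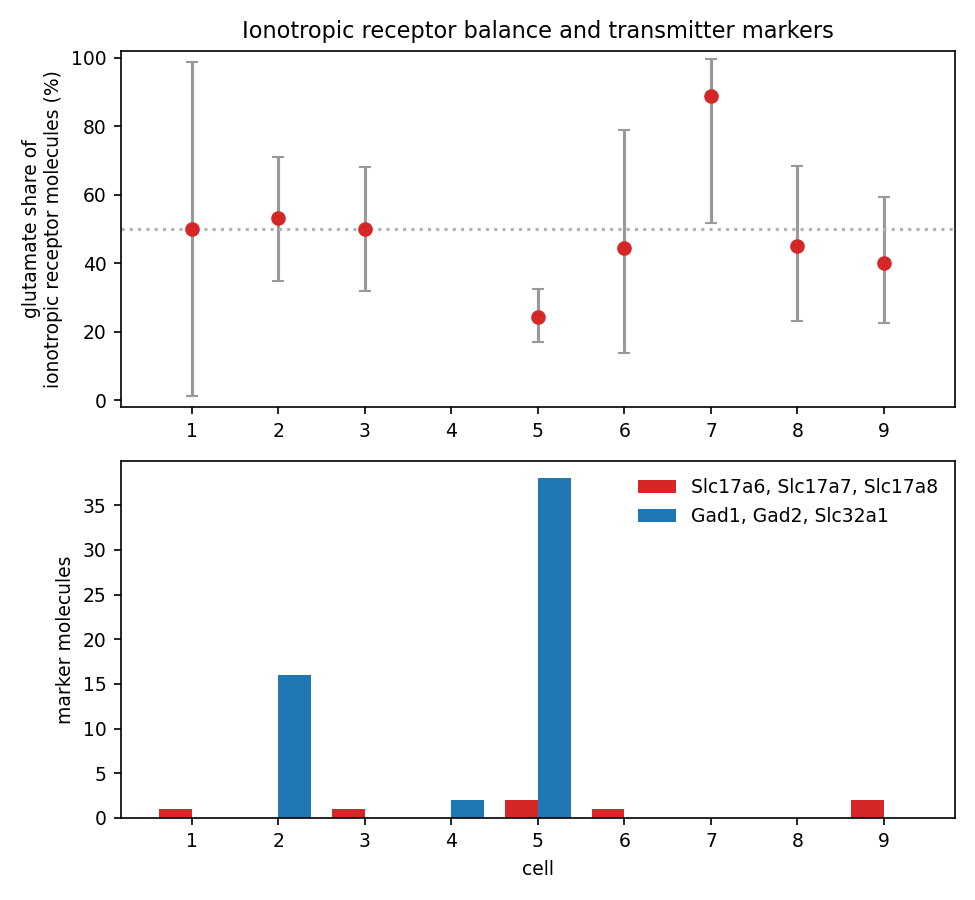
Above, the share of glutamate receptors (AMPA, NMDA and kainate) among ionotropic receptor molecules in percent with exact 95% Clopper-Pearson intervals as bars and a dotted line at 50%, for cells 1 to 9; cell 4 had none. Below, molecules of glutamate and GABA transmitter markers per cell, where cells 5 and 2 hold 38 and 16 of the GABA markers while their shares are 24.2% and 53.1%.

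Some members were found in cells 2 and 5 and nowhere else, a pattern picked out after the values were seen. Among them were Grm5, Gabra3, Gabrb1 and Glrb, with 15, 4, 9 and 14 molecules. These are also the cells with the most receptor genes detected, and in cell 2 the counts of Gabra3, Gabrb1 and Glrb are 1 each. Of these 4 genes only Grm5 had 3 or more molecules in cell 2. The share of all symbols found in cells 2 and 5 only is not given, so the pattern is no result about the members. The part of depth in it was not tested. Gabra2 was found in cell 5 but not in cell 2, and also had 3 and 4 molecules in cells 3 and 9. Those 2 cells held 1 and 2 Slc17a6 molecules and no GABA marker.

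Receptors depend on partner proteins for assembly, anchoring and supply, and 80 such genes were listed. Of these, 65 (81.2%) were detected in at least 1 cell and 13 (16.2%) in at least 5 cells, against 41.4% and 7.00% of all symbols. The list was chosen with earlier results of these data known, so its higher shares are not a result about partner genes. Among 15 AMPA receptor partner genes 2 were in at least 5 cells, Olfm1 with 15 molecules in 7 cells and Frrs1l with 10 in 6, while 7 had none. Of 28 glutamate receptor scaffold and trafficking genes 4 were in at least 5 cells and 20 in 1 to 4. Nsf, an ATPase that binds GluA2 and drives membrane fusion, had 25 molecules in 6 cells, Camk2b and Camk2a, the calcium-dependent kinase genes, had 19 in 6 and 10 in 5, and Dlgap4 had 6 in 5. The kainate partners Neto2 and Neto1 had 2 and 1 molecules.

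On the inhibitory side 4 of 20 genes were in at least 5 cells and 12 in 1 to 4. Gphn, which encodes gephyrin, the scaffold of GABA-A and glycine receptors, had 3, 2, 2, 2, 3 and 1 molecules in cells 2, 3, 5, 7, 8 and 9. Gabarapl2, Gabarapl1 and Gabarap, of the family that carries GABA-A receptors and builds autophagosomes, had 48, 38 and 28 molecules. Of 4 chloride transport genes none reached 5 cells. Slc12a5, the exporter that makes GABA inhibitory in mature neurons, had 4, 6 and 1 molecules in cells 3, 5 and 9. These cells held GABA-A transcripts, but so did 7 of the 9 cells in all, so this is no result about Slc12a5. Wnk1 had 12 molecules in 4 cells. Of 11 transmitter uptake and supply genes 3 were in at least 5 cells. Among them Slc38a2 and Slc38a1, glutamine transporter genes, had 43 and 15 molecules, each in 6 cells. Cell 7, with endothelial markers, held 17 of the Slc38a2 molecules.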

How the data were processed

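The measurements are raw counts, termed molecules in the name of the table that the authors deposited, for 24378 rows of genes and 92 of spike-in RNAs. Its 9 columns were matched to cells by the number in the column name. The column name of cell 9 alone names a different lane from the rest. The part of the lane in the values of cell 9 was not tested. Per the labels' protocols, cells from slices 300 µm thick were captured on a Fluidigm C1 chip, and cDNA was amplified by PCR and cut with a transposase. The submitters' processing notes name mm10 and Bowtie. Counting, collapsing of duplicates and strand are not given in the sources used here. Members and gene lists were chosen with earlier results of these data known.

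Loci of 1 symbol were joined by taking the largest row in each cell; no member was split. Levels are molecules per 10000 gene molecules, spike-ins left out. A gene counted as detected at 1 molecule. Intervals are exact Poisson for counts and exact Clopper-Pearson for shares, at 95%; a count of 0 was given a limit of 3 molecules. Members detected in at least 2 cells, or with at least 3 molecules in 1 cell, were named with all values, and the other members are named too, except 5 members and 1 partner gene that enter counts and sums but are not reported here. Of the partner lists, genes in at least 5 cells were named, or else the 2 with the most molecules. No p-value was computed between cells, since no animal is named and they form 1 sample; cells are set side by side with their counting intervals, and Dixon's limit only picks values for a closer look; doublets were not called in 9 cells, and marker lists of 9 other cell types were summed instead. Of each member's transcripts, the share of 30-base words found in any other gene (GENCODE M21) was over 2% for 5 members, Grin2a, Grid1, Gabrr1, Gabrr2 and Glrb, whose counts are the least certain. Exons of 15 members overlap a gene on the opposite strand. Counting steps were tested on simulated data. Alternatives were leaving out cells, detection at 2 molecules, thinning, other totals, joined loci and transcript length. Software was Python 3.11.15 (scipy 1.17.1, numpy 2.4.6, pandas 2.3.3; plots, matplotlib 3.10.9).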

Additional observations from a re-analysis of the deposited data

Results flagged for a closer look

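For 30 measures, all scaled to 10000 gene molecules (the sum over members, 7 families and 22 named members), each cell was compared with the other 8. In 10 of them 1 cell stood apart, with a gap to the nearest other cell that was a larger part of the whole range than Dixon's 95% limit for 9 values. Chance alone flags about 1 in 20 groups of well-behaved values, and counts with many zeros at unequal depth are not such values, so the limit serves here as a screen and not as a test. No family and no sum over members had such a cell.

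Cell 5, the deepest, which also held 10 of 10 oligodendrocyte markers, stood apart for Glrb (4.912 molecules per 10000), Gabrb2 (3.778), Gabrb1 (3.023) and Gabra4 (1.134). Cell 2, with no such markers, stood apart for Grm5 (9.401) and Gria1 (3.134). Cell 6, with few molecules, stood apart for Grm2 (8.842, from 3 molecules) and Grm7 (2.947, from 1). Cell 1, the shallowest, stood apart for Glra2 (9.794, from 1 molecule), and cell 3 for Gabbr2 (1.864, from 2). All levels named here for cells 1, 3 and 6, and those of Gria1 in cell 2 and Gabra4 in cell 5, rest on 1 to 3 molecules. The intervals of Glra2, Grm2 and Grm7 in cells 1 and 6 reach 54.6, 25.8 and 16.4 per 10000, and that of Gria1 in cell 2 runs from 0.646 to 9.16. For Gabra4 the limits for a 0 in the other cells, 2.28 or more, exceed the level in cell 5, so no other cell is shown to be lower. The Gabrb2 interval of cell 5 overlaps those of cells 2 and 3, and its Gabrb1 and Glrb intervals overlap those of cell 2. For Gabrb1 the limits for a 0 in cells 1, 6, 7 and 9 also exceed the level in cell 5. The part of depth and of other cells' RNA in these values was not tested.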

How the results depend on the processing

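Of 85 recomputed values, 63 stayed within 1.5 times the reported count or, for the median receptor level, within 1 SD between cells. The tally includes settings added after seeing the data, among them all those without the 2 shallowest cells. Summing loci could change no value, since no member was split, and leaving out 1 cell can move a median only little. The tally is therefore a description and not a test. Leaving out 1 cell at a time gave 2 to 5 members in at least 5 cells, 1 or 2 cells led by glutamate receptors, and 1 or 2 cells with Grin1 and a Grin2 gene. Without cells 4, 5, 7 and 8 these numbers were 1, 1 and 1, the first because all 5 remaining cells were then required; with 3 of those 5 required, a setting chosen after seeing the data, it was 6. Without the same 4 cells 29 members were detected in any cell, the median receptor level was 38.3 per 10000, and 2 cells held the GABA-A set. With at least 2 molecules, 2 members reached 5 cells and 1 cell had the NMDA pair. After thinning to 1021 molecules per cell, 11 members were detected in any cell and 0 in at least 5, and 0 cells held the GABA-A set or the NMDA pair. At least 4 or 6 cells in place of 5 gave 9 and 2 members. Receptor molecules per 1000 spike-in molecules had a median of 9.17, in another unit. Spike-in molecules numbered 614 in cell 9 and 1962 to 2184 in the other cells. Per kilobase of transcript, 1 cell was led by glutamate receptors. No paired analysis was possible because all cells form 1 group. Depth limits every count of 0, most of all in cells 1 and 6.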
